A study of Mus musculus with 58 samples.

Results

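Insulin-gated cells of the E15.5 mouse embryonic pancreas numbered 281 of the 965 wells kept from 4 plates (29.1%). All plates of the series matched to a label held 4318 kept wells. The 4 plates mix cells sorted for a GFP reporter with cells sorted for viability only, so 29.1% is not a share of the pancreas. A well was kept when it held at least 2000 transcripts other than spike-ins and at least 500 genes. It was insulin-gated when Ins1 plus Ins2, the insulin genes of the mouse, took at least 1% of those transcripts and at least 3 times the amount of each of Gcg, Sst, Ppy and Ghrl, which encode glucagon, somatostatin, pancreatic polypeptide and ghrelin. The members were chosen by these measured hormone shares, which are therefore given below as a description, with no test.

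The cells came from pancreata dissected from embryos of MIP-GFP females, a reporter line in which the mouse insulin promoter drives green fluorescent protein. No other genotype and no treatment is named for any group. Tissue was dispersed with an enzyme, and single cells were sorted into 384-well plates and profiled by SORT-seq, which counts the 3′ ends of transcripts with unique molecular identifiers. At E15.5, experiments EP10 and EP17 each gave a plate sorted for GFP (MIP-GFP) and a plate of viable cells, taken by a viability dye (live). The GFP sort selects on reporter protein and not on insulin transcripts, and the labels do not say how many embryos went into a plate.

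Of the kept wells, the insulin gate took 140 of 358 on the EP10 MIP-GFP plate, 123 of 190 on the EP17 MIP-GFP plate, 13 of 288 on the EP10 live plate and 5 of 129 on the EP17 live plate. They were set against all other kept wells of the same plates (218, 67, 275 and 124) and against 2 endocrine classes of the MIP-GFP plates. Glucagon-gated cells (57 in EP10 and 21 in EP17) met the same gate for Gcg. Fev-gated cells (66 in EP10 and 10 in EP17) lay outside every hormone gate and held at least 2 transcripts of Fev, a transcription factor of endocrine precursors, and 0 of Neurog3, the factor that starts the endocrine programme. Insulin-gated cells of the E13.5 (EP12, 46 cells) and E14.5 (EP14, 60 cells) MIP-GFP plates served for a comparison of stages.

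Beta cells make preproinsulin, which enters the endoplasmic reticulum (ER), loses its signal peptide, folds with disulfide bonds and is then cut and stored in granules until glucose is sensed. In the mouse, endocrine cells arise from Neurog3-positive epithelial cells, pass through a state marked by Fev, and then take on a hormone. Around E15.5 many beta cells are newly formed, and they differ from adult beta cells in maturation genes such as Ucn3. In the transcription of insulin, Neurod1 binds an E box and Pdx1 binds TAAT boxes close upstream of the gene.

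The proximal promoters of Ins1 and Iapp are shown because Ins1 is a gene of the gate and Iapp a marker that the gate did not use. Iapp encodes amylin, which is packed with insulin. Each sequence is the 250 bases upstream of the RefSeq start (build GRCm38.p6, plus strand, 5′ to 3′), at chr19:52264047-52264296 for Ins1 and chr6:142298175-142298424 for Iapp. Capitals mark matches on either strand to the E box GCCATCTG and to TAAT.
Ins1: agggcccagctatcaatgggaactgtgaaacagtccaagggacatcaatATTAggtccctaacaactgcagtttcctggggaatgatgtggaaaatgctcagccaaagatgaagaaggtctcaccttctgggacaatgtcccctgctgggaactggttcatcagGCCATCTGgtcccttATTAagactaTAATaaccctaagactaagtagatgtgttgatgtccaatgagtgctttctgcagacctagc
Iapp: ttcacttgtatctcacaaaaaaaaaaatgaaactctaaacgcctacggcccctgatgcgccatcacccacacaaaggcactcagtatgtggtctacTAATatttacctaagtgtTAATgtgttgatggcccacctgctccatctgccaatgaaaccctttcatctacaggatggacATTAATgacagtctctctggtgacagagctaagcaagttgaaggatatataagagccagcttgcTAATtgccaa
The Ins1 window held 1 E box of these letters and 3 TAAT boxes, and the Iapp window held 0 E boxes of these letters and 5 TAAT boxes, of which an adjoining pair overlaps. Of 32851 RefSeq promoter windows of this length, 1.11% held GCCATCTG, 54.9% held TAAT and 9.62% held at least 4 TAAT boxes. These are matches of letters and not measured binding. By the GENCODE annotation of mm10, Ins1 lies at chr19:52264297-52265476 and Iapp at chr6:142298423-142303961, both on the plus strand. Ins2 has an annotated span of chr7:142678656-142743381 on the minus strand.

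The share of insulin-gated wells was 39.1% (34.2 to 44.3) on the EP10 MIP-GFP plate and 64.7% (57.7 to 71.2) on the EP17 MIP-GFP plate, against 4.51% (2.66 to 7.57) on the EP10 live plate and 3.88% (1.67 to 8.75) on the EP17 live plate. In both experiments the GFP sort held the larger share, and the intervals of the sorts did not overlap. Intervals here are Wilson 95% intervals and cover counting error only. By stage, the share on MIP-GFP plates was 12.7% of 362 kept wells at E13.5, 17.9% of 335 at E14.5 and the 2 values above at E15.5. MIP-GFP libraries of EP11 and EP18 carry E15.5 in their titles and E12.5 in their stage label. They entered no test, and 0 of their 349 and 173 kept wells passed the gate, which allows a share of up to 0.860% and 1.73% when a count of 0 is bounded by 3 wells.

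**Figure D1:**
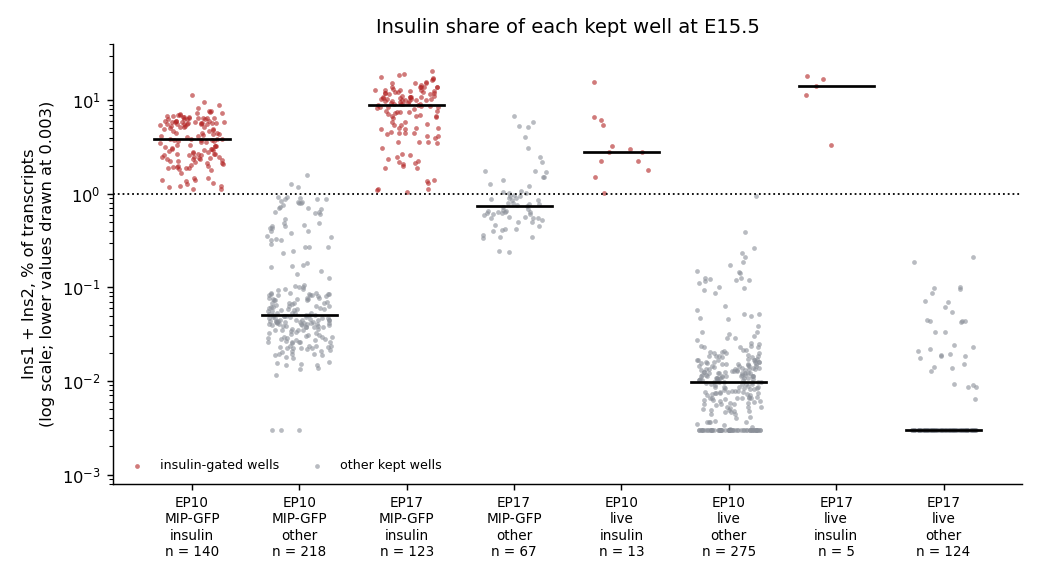
Insulin share of each kept well (Ins1 plus Ins2, % of transcripts other than spike-ins, log scale) on the 4 E15.5 plates, with insulin-gated wells left of the other wells of the same plate. Each point is a well, black bars are medians, and the dotted line is the gate at 1%. Insulin-gated wells of the EP17 MIP-GFP plate have a median of 8.95% and those of the EP10 MIP-GFP plate 3.82%.

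Within the gated cells, insulin took a median of 3.82% of transcripts on the EP10 MIP-GFP plate (1.13 to 11.3), 8.95% on the EP17 MIP-GFP plate (1.05 to 20.6), 2.82% on the EP10 live plate (1.02 to 15.8) and 14.3% on the EP17 live plate (3.34 to 18.2). The cells thus spanned a wide range of insulin share, and the EP17 cells stood higher than the EP10 cells. EP17 was also the shallower experiment: its gated cells held a median of 8590 (MIP-GFP) and 7397 (live) transcripts, against 22460 and 22358 in EP10. Kept wells of a plate summed to between 1222637 and 7687606 transcripts.

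Ins2 transcripts outnumbered Ins1 transcripts in most cells. Ins2 made up a median of 66.9% of insulin transcripts on the EP10 MIP-GFP plate, 65.8% on the EP17 MIP-GFP plate and 77.3% on the EP10 live plate. It was above 50% in 123 of 140, 117 of 123 and 13 of 13 cells of these plates. Mouse Ins1 and Ins2 are near-identical copies, so reads between them may be split imperfectly, and their sum is the safer value. The UMIs held a gene to at most 1597 transcripts in a well, and Ins2 reached this ceiling in 12 cells and Ins1 in 1, so the insulin shares of those cells are lower limits.

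The gate divided a continuous range. Between 1% and 1.25% lay 16 wells, of which 10 were insulin-gated, and between 0.75% and 1% lay 26 wells. The lowest gated cells of the EP10 and EP17 MIP-GFP plates had 1.13% and 1.05% insulin, and the highest wells under 1% had 0.932% and 0.970%. In all, 23 wells had at least 1% insulin but too much of another hormone, which was Gcg in 18. Other kept wells had a median insulin share of 0.0508% on the EP10 MIP-GFP plate and 0.739% on the EP17 MIP-GFP plate, against 0.00969% and 0% on the EP10 and EP17 live plates.

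Of the markers Ins1, Ins2, Iapp and Nnat, the first pair was fixed by the gate, and Iapp and Nnat served as the check of the label. Iapp took a median of 1.20% and 1.64% of the transcripts of gated cells on the EP10 and EP17 MIP-GFP plates, and 0.754% and 2.47% on the live plates. Nnat, an imprinted gene that aids signal peptide handling in beta cells, took 1.09% and 0.832% on the MIP-GFP plates and 0.667% and 0.401% on the live plates. Nnat lies at chr2:157560078-157562522, inside the span of Blcap on the other strand. Against the other wells of the MIP-GFP plates, tested as set out below, Nnat passed (3.17 ± 0.40, edgeR adjusted p = 0.0203). Iapp did not, at 13121 and 20320 CPM in insulin-gated wells and 4252 and 6915 CPM in other wells (1.69 ± 0.74, adjusted p = 0.337).

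Traces of other hormones remained. At least 1 Gcg transcript was found in 140 of 140 gated cells on the EP10 MIP-GFP plate (median 10.2 transcripts) and in 118 of 123 on the EP17 MIP-GFP plate. Fev-gated cells of the EP10 plate held Gcg in 66 of 66 cells with a median of 8.13 transcripts, while 0 of 13 gated cells on the EP10 live plate held any. The share of EP10 gated cells with Gcg was thus no higher than in Fev-gated cells. In a single gated cell Gcg reached at most 0.710% of transcripts on the EP10 MIP-GFP plate and 1.66% on the EP17 MIP-GFP plate. Whether these transcripts were expressed by the gated cells was not tested. Sst was found in 56 of 140 and 48 of 123 cells, against 18 of 66 and 4 of 10 Fev-gated cells. The part of free RNA from other cells in these traces and in the results below was not tested.

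Markers of other endocrine cells were present in the gated cells of the MIP-GFP plates. The 6 alpha markers, Gcg included, summed to 4894 and 6143 CPM in EP10 and EP17. The 3 delta markers summed to 2187 and 2364 CPM, and the 3 epsilon and PP markers to 1635 and 3071 CPM. Single members carried these last sums: Rbp4 made up most of the delta sum and Pyy most of the epsilon and PP sum. Ppy was found in 42 of 140 and 52 of 123 cells, and Ghrl in 29 and 15. The sums therefore do not speak for every member of a list. Markers of non-endocrine cells summed to less. The 6 mesenchyme markers summed to 6.39 CPM in EP10 and 135 CPM in EP17, where 1 cell alone reached 18550 CPM. CPM here is the number of a gene's transcripts per 1000000 transcripts, with the 6 hormone genes of the gate left out of the total. The 8 acinar markers summed to 177 CPM in EP10, where 1 cell reached 6089 CPM, and to 60.7 CPM in EP17. The 4 endothelial markers were at 2.23 and 0.878 CPM, and the 4 immune markers at 4.79 and 20.3 CPM, with 1 EP17 cell at 2999 CPM. On the live plates the acinar list was at 970 and 1632 CPM in the 13 and 5 gated cells, beside 9829 and 29714 CPM in the other wells of those plates.

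Insulin-gated cells were first set against glucagon-gated cells, the nearest hormone-producing class on the same plates. Genes for protein folding and export, most of the beta-cell maturation list and the glucose transporter stood higher in the insulin-gated cells. Most alpha-cell genes tested and 16 of 38 cell cycle genes stood lower. Transcripts were summed per experiment and class, without the hormone genes, and tested by edgeR's quasi-likelihood test with the experiment as block and Benjamini-Hochberg adjustment over all genes tested. Of 10616 genes, 1534 passed at an adjusted p of 0.05 (14.4%): 904 were higher in insulin-gated cells (8.52%) and 630 lower (5.93%). Without TMM scaling 717 were higher and 881 lower, and the median log2 difference of all genes moved to -0.11 from 0.02. Each class is 1 sum per experiment, so every value below is given for EP10 and then EP17.

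The largest higher call among genes above 50 CPM was Sytl4, granuphilin, which docks insulin granules at the plasma membrane. It stood at 877 and 799.7 CPM in insulin-gated cells of EP10 and EP17, against 4.98 and 10.1 CPM in glucagon-gated cells. The log2 difference was 7.32 ± 0.33 (edgeR, adjusted p = 4.41e-22). Slc2a2, the glucose transporter GLUT2, reached 373 and 307 CPM in insulin-gated cells, against 6.65 and 0 CPM in glucagon-gated cells (6.03 ± 0.38, adjusted p = 7.86e-17). Adra2a, the adrenergic receptor that restrains insulin release, stood at 395 and 370.3 CPM against 2.50 and 15.1 CPM (6.51 ± 0.36). These 3 genes were scarce in glucagon-gated cells, and at this depth 5.04 CPM in the EP17 glucagon sum is 1 transcript.

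Genes of the maturation list were mostly higher. The list also holds genes that fall as beta cells mature, such as Cd24a, so its counts do not grade maturity. Of 19 tested, 15 were higher and 1 lower, with a median log2 difference of 2.57 beside 0.02 for all genes. Npy, which encodes neuropeptide Y and lies at chr6:49822710-49829507, stood at 2035 and 2754 CPM in insulin-gated cells against 79.1 and 172 CPM in glucagon-gated cells (4.52 ± 0.24, adjusted p = 2.39e-19). Nnat stood at 12130 and 11353 CPM against 373 and 605 CPM (4.81 ± 0.24), and Iapp at 13121 and 20320 CPM against 5483 and 8686 CPM (1.39 ± 0.17). Iapp was thus present in both classes and Nnat set them apart further. Ucn3, a late marker of beta-cell maturation, was higher but scarce, with 50 and 44 transcripts in the insulin-gated sums against 5 and 3 in the glucagon-gated sums (1.79 ± 0.55). Ccnd2, a cyclin of beta-cell growth, was the 1 member that was lower (-1.54). This list, like the others, was drawn up with results of these data known.

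Genes that fold secretory proteins were higher almost throughout. Of 25 tested genes of the unfolded protein response, 24 were higher and 0 lower, with a median of 1.99. Hspa5, the ER chaperone BiP, stood at 4072 and 3319.8 CPM in insulin-gated cells against 1049 and 909.8 CPM in glucagon-gated cells (2.06 ± 0.16, adjusted p = 5.85e-14). Sdf2l1, a partner of BiP, differed more widely, at 206 and 161 CPM against 10.8 and 20.1 CPM (4.03 ± 0.35). Creld2 and Dnajb9, ER proteins induced by misfolded cargo, differed by 2.92 and 2.92. Xbp1, a transcription factor of this response, differed by less (1.01 ± 0.19).

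The machinery that brings proteins into the ER followed the same direction. Of 29 genes for ER entry, signal peptide removal and glycan transfer, 26 were higher and 0 lower, with a median of 1.27. Sec61b, a subunit of the channel, stood at 1722 and 2774 CPM in insulin-gated cells against 545 and 878 CPM in glucagon-gated cells (1.80 ± 0.17). Ssr3, of the translocon-associated complex, differed by 1.96, and Sec11c, of the signal peptidase, by 1.87. Derl3, which takes misfolded proteins out of the ER and is on neither list, stood at 137 and 116 CPM against 1.66 and 0 CPM (6.58 ± 0.51).

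Granule and processing genes were mixed. Among 10 genes of prohormone processing, Pcsk1, the convertase PC1/3 of proinsulin, was higher at 445 and 456 CPM in insulin-gated cells against 78.5 and 65.6 CPM in glucagon-gated cells (2.70 ± 0.23), while Pam, Pcsk1n and Cpe were lower (-1.21, -0.92 and -0.45). Pcsk2 did not pass the test (-0.12 ± 0.17, adjusted p = 0.763). Of 16 granule proteins, 7 were higher and 3 lower: Scg2 differed by 1.99 and Chga by 1.08, and Tmem27, a beta-cell surface protein also made in alpha cells, was lower (-2.46). Of 18 genes of glucose sensing and stimulus coupling, 9 were higher and 0 lower. They included G6pc2, a glucose-6-phosphatase of beta cells, at 496 and 545 CPM against 132 and 132 CPM (2.02 ± 0.23), and Ero1lb, which forms disulfide bonds in proinsulin, at 832 and 852 CPM against 139 and 172 CPM (2.61 ± 0.20).

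Transcription factors divided by lineage. Of 25 tested, 7 were higher and 7 lower. Pdx1 stood at 52.2 and 19.3 CPM in insulin-gated cells against 1.66 and 5.03 CPM in glucagon-gated cells (4.33 ± 0.63), Nkx6-1 at 349 and 159 CPM against 64.3 and 15.1 CPM (2.55 ± 0.27), and Mlxipl, the glucose-responsive factor ChREBP, at 776 and 487 CPM against 102 and 55.5 CPM (3.03 ± 0.21). All 3 stood higher in the insulin-gated sum of each experiment. Among factors of alpha cells, Irx1 stood at 12.9 and 14.9 CPM against 472 and 412 CPM (-4.92 ± 0.24), and Etv1 at 16.7 and 23.8 CPM against 789 and 766 CPM (-5.23 ± 0.23). Isl1, which serves both lineages, was lower by a smaller step (-0.90 ± 0.16). Of 16 alpha-cell genes tested, 14 were lower and 1 higher, with a median of -3.12.

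Peptide genes other than the gate's hormones also differed: 4 of 11 were higher and 6 lower. Cartpt stood at 29.2 and 27.3 CPM in insulin-gated cells against 742 and 1043 CPM in glucagon-gated cells (-4.75 ± 0.21), and Pyy at 1566 and 2873 CPM against 3755 and 8949 CPM (-1.29 ± 0.16). Gip, an incretin of the gut, was higher (1.91 ± 0.27). It was found in 40% and 40.7% of the insulin-gated cells, and a single cell held 14.8% and 57.7% of its transcripts in them. Among 38 cell cycle genes, 16 were lower and 0 higher. They included Top2a at 1.28 and 0.878 CPM against 42.6 and 5.03 CPM and Cdk1 at 2.23 and 0.878 CPM against 33.96 and 0 CPM, with the EP17 glucagon sum at 1 and 0 transcripts and the EP10 glucagon sum resting on 7 and 5 of 57 cells. Mki67 was found in 5 of 140 and 2 of 123 insulin-gated cells. Of 29 imprinted genes, 10 were lower and 4 higher. Peg10 stood at 582 and 338 CPM against 3980 and 5179 CPM (-3.18 ± 0.19), and Dlk1 was higher (2.17 ± 0.18). Of 22 immediate early and dissociation genes, 14 were higher and 1 lower, with Fos at 1968 and 1048 CPM against 1104 and 392 CPM (1.21 ± 0.17). Such genes respond to the dispersal of tissue, and their part in the other differences was not tested.

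**Figure D2:**
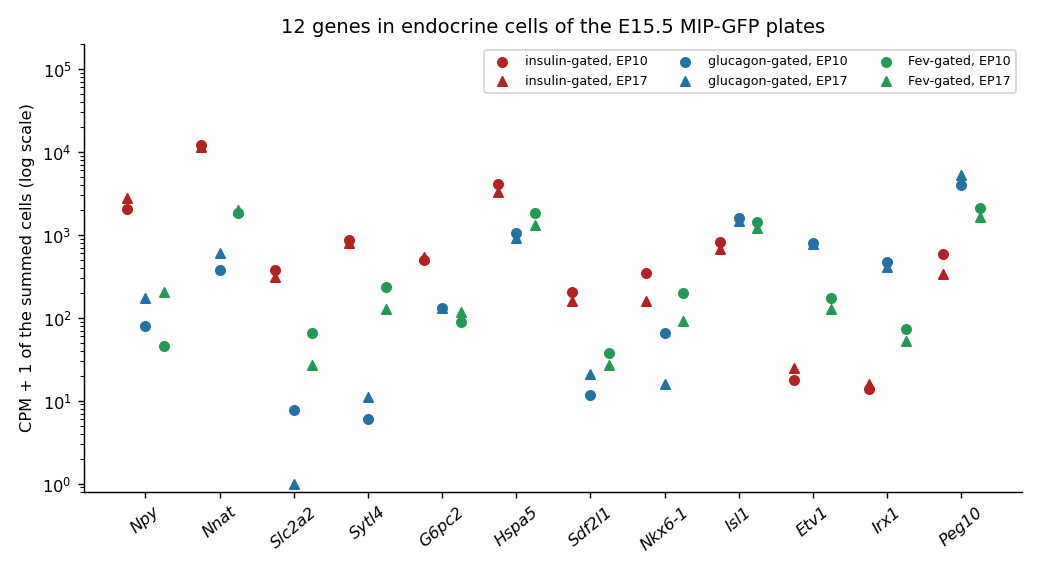
Level of 12 genes (CPM plus 1, log scale) in summed insulin-gated, glucagon-gated and Fev-gated cells of the E15.5 MIP-GFP plates, with circles for EP10 and triangles for EP17. Each point is the sum of all cells of a class on a plate. Sytl4 and Slc2a2 separate insulin-gated from glucagon-gated cells most, while Isl1 lies at 826 and 671 CPM in insulin-gated cells and at 1609 and 1461 CPM in glucagon-gated cells.

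Insulin-gated cells were next set against Fev-gated cells, which lay outside every hormone gate on the same plates. They were not free of hormone transcripts, and a well rich in several hormones could also lie outside every gate. The 3 epsilon and PP markers, Pyy included, summed to 3939 and 13581 CPM in Fev-gated cells of EP10 and EP17. In insulin-gated cells they summed to 1635 and 3071 CPM. Insulin-gated cells again had more transcripts of folding and ER entry genes and of the maturation list, and fewer of Irx1, Pax4 and Hhex. Of 10614 genes, 541 passed (5.1%): 367 were higher (3.46%) and 174 lower (1.64%) in the same edgeR fit. Without TMM scaling the split was 263 higher and 232 lower, and the median log2 difference of all genes moved to -0.10 from 0.03. The EP17 Fev-gated sum held 10 cells only, and both comparisons share the insulin-gated sums, so their values are given side by side and no overlap is counted.

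Of 25 unfolded protein response genes, 20 were higher and 0 lower in insulin-gated than in Fev-gated cells, with a median of 1.34. Hspa5 stood at 4072 and 3319.8 CPM against 1816 and 1307 CPM in Fev-gated cells (1.39 ± 0.16, adjusted p = 1.74e-08), between glucagon-gated and insulin-gated cells. Of 29 ER entry genes, 21 were higher and 0 lower. Sec11c, of the signal peptidase, stood at 309 and 367 CPM against 114 and 64.1 CPM (1.68 ± 0.22). Of 19 maturation genes, 15 were higher, with a median of 1.73 beside 0.03 for all genes. Cd24a, which falls as beta cells mature, was the 1 member that was lower, at 73.00 and 111 CPM against 255 and 464 CPM (-1.60 ± 0.26).

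Npy differed widely, at 2035 and 2754 CPM in insulin-gated cells against 44.5 and 206 CPM in Fev-gated cells (5.08 ± 0.27, adjusted p = 2.36e-18). Prss53, a serine protease gene, stood at 217 and 170 CPM against 10.5 and 0 CPM (4.59 ± 0.37), and C2cd4a, a gene linked to insulin secretion in mice, at 52.2 and 50.4 CPM against 3.23 and 0 CPM (4.11 ± 0.60). The EP17 Fev-gated sum held 0 transcripts of both. Slc2a2 stood at 373 and 307 CPM against 64.4 and 25.6 CPM (2.64 ± 0.27), and Sytl4 at 877 and 799.7 CPM against 236 and 129 CPM (2.12 ± 0.20). Fev-gated cells thus held both transcripts, at levels above those of the glucagon-gated cells and below those of the insulin-gated cells in each experiment. Scg2, a granule protein, differed by 2.26, while Chgb was lower in insulin-gated cells (-0.70 ± 0.16).

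Of 25 endocrine transcription factors, Nkx6-1 alone was higher in insulin-gated than in Fev-gated cells (0.86 ± 0.24) and 8 were lower. Hhex, the delta-cell factor, stood at 0.319 and 3.52 CPM against 102 and 223 CPM (-6.42 ± 0.49), and Irx1 at 12.9 and 14.9 CPM against 72.4 and 51.3 CPM (-2.23 ± 0.30). Pax4, which steers precursors away from the alpha fate, stood at 19.9 and 22.1 CPM against 58.5 and 64.3 CPM (-1.43 ± 0.31). Pdx1 did not pass the test (-0.21 ± 0.36, adjusted p = 0.900). Of 16 alpha-cell genes, 10 were lower and 0 higher, and of 20 precursor genes 2 were higher (Gadd45a and Tubb3) and 5 lower, among them Runx1t1 at 64.5 and 63.5 CPM against 419 and 193 CPM (-2.26 ± 0.23). Of 22 immediate early genes 1 was lower, Klf2 (-2.05 ± 0.30), and 0 were higher.

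**Figure D3:**
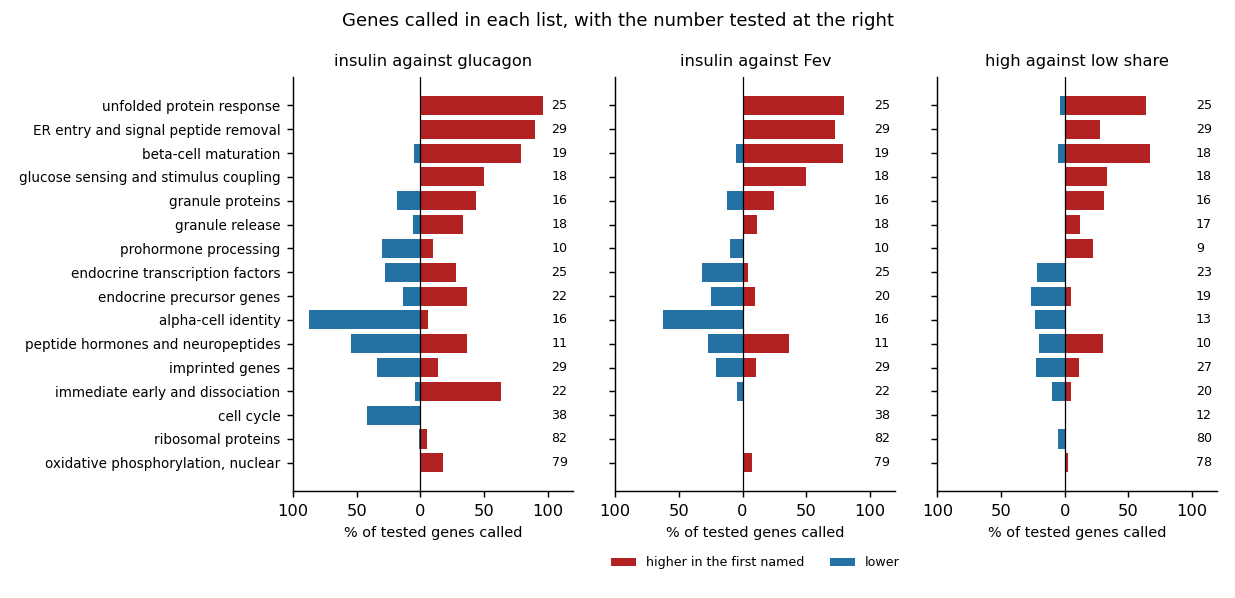
Share of each list's tested genes that were higher (red, right) or lower (blue, left) in the first-named cells, in 3 comparisons at E15.5, with the number of genes tested at the right edge. Unfolded protein response and maturation genes lie mostly on the higher side in all 3 panels, and the alpha-cell genes called lie on the lower side except 1 in the first panel.

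Against all other kept wells of the MIP-GFP plates, 159 of 11992 genes passed (1.33%), 65 higher (0.542%) and 94 lower (0.784%). With DESeq2 in place of edgeR the split was 135 higher and 117 lower, and a fit of the MIP-GFP plates without the live plates called 2480. The other wells hold several cell classes. Of 26 unfolded protein response genes, 12 were higher and 0 lower, and of 20 maturation genes 10 were higher and 0 lower. None of 29 ER entry genes passed in edgeR, with a median log2 difference of 1.01, while 25 had an unadjusted p under 0.05 and DESeq2 called 14. Of 17 granule proteins and 10 processing genes 0 passed, with 7 and 2 at an unadjusted p under 0.05 and 2 and 0 called by DESeq2. Syndig1l, a synaptic membrane protein gene, stood at 147 and 160.4 CPM in insulin-gated wells against 9.18 and 9.73 CPM in other wells (4.11 ± 0.35, edgeR adjusted p = 0.00823). Arhgap36, a regulator of protein kinase A signalling, stood at 738 and 677 CPM against 50.2 and 87.8 CPM (3.55 ± 0.39). Rgs4, a G protein regulator, stood at 1.60 and 6.15 CPM against 75.2 and 100 CPM (-4.68 ± 0.60). The rule for naming the largest calls required the same direction in each experiment, so agreement of EP10 and EP17 is no separate support for them.

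The gated cells of each MIP-GFP plate were then divided into tertiles of insulin share, to ask which other genes vary with insulin from cell to cell. Cells with much insulin had more Npy, G6pc2, Nnat and ER chaperone transcripts. They had fewer transcripts of Pax4, Etv1 and Fev and of some other genes of precursors or of alpha cells. Pdx1, Nkx6-1 and Neurod1 did not pass the test. The high tertile held 46 cells in EP10 and 41 in EP17, with insulin from 5.53% to 11.3% and from 10.6% to 20.6%. The low tertile held 47 and 41 cells, with insulin from 1.13% to 2.80% and from 1.05% to 5.92%. A tertile is a range and not a cell type: 17 and 28 of the 140 EP10 cells lay within 10% of the lower and of the upper boundary (2.82% and 5.47%), and 6 and 21 of the 123 EP17 cells (6.20% and 10.5%). Median transcripts per cell were 24736 and 10100 in the high tertiles of EP10 and EP17, against 21516 and 6848 in the low tertiles. Hormone genes were left out of the sums and of their totals, so insulin itself does not dilute the other genes.

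Of 8603 genes, 384 passed between high and low tertiles (4.46%): 241 were higher (2.8%) and 143 lower (1.66%) in the high tertile. DESeq2 called 67 genes, all among the 384, with 52 higher and 15 lower, and without TMM scaling the split was 170 and 161. Without the experiment as block, 0 genes passed and 421 had an unadjusted p under 0.05, so the calls rest on the paired reading of EP10 and EP17. When tertiles were taken within equal parts of depth, 341 genes passed, 298 of them shared.

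Npy had the smallest adjusted p of the comparison. It stood at 3939 and 5045 CPM in the high tertiles of EP10 and EP17, against 334 and 910.1 CPM in the low tertiles (3.08 ± 0.16, adjusted p = 1.72e-17). The mid tertiles lay between them, at 1750.5 and 2139.8 CPM. In single cells the median was 2817 and 3117 CPM in the high tertiles, against 80.5 and 155 CPM in the low tertiles. With every cell thinned to 2000 transcripts, Npy was found in 89.1% and 82.9% of high-tertile cells, against 27.7% and 43.9% of low-tertile cells and 12.3% and 19.05% of glucagon-gated cells. Both measures put the tertiles in the same order in each experiment.

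Other genes of the maturation list moved with Npy. Of 18 tested, 12 were higher and 1 lower, with a median of 0.81 beside -0.02 for all genes. G6pc2, on chr2:69211073-69227841, stood at 718 and 915 CPM in the high tertiles against 268 and 193 CPM in the low tertiles (1.78 ± 0.15, adjusted p = 2.96e-11). Nnat stood at 16900 and 16310 CPM against 7828 and 5494 CPM (1.39 ± 0.12), and Iapp at 15580 and 28104 CPM against 10428 and 12599 CPM (0.93 ± 0.12). Neither gene's levels overlapped between the tertiles. Prlr, the prolactin receptor that drives beta-cell growth in pregnancy, stood at 63.2 and 21.3 CPM against 5.02 and 3.13 CPM (3.50 ± 0.53). Prlr was scarce, and 3.13 CPM in the EP17 low tertile is about 1 transcript. Cd24a was the 1 member that was lower, at 44.9 and 39.96 CPM against 102 and 199 CPM (-1.52 ± 0.23). Of 18 glucose sensing genes, 6 were higher and 0 lower. They included Slc2a2 at 525 and 393 CPM against 279 and 126 CPM (1.15 ± 0.17), and Ero1lb (1.04 ± 0.12).

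**Figure D4:**
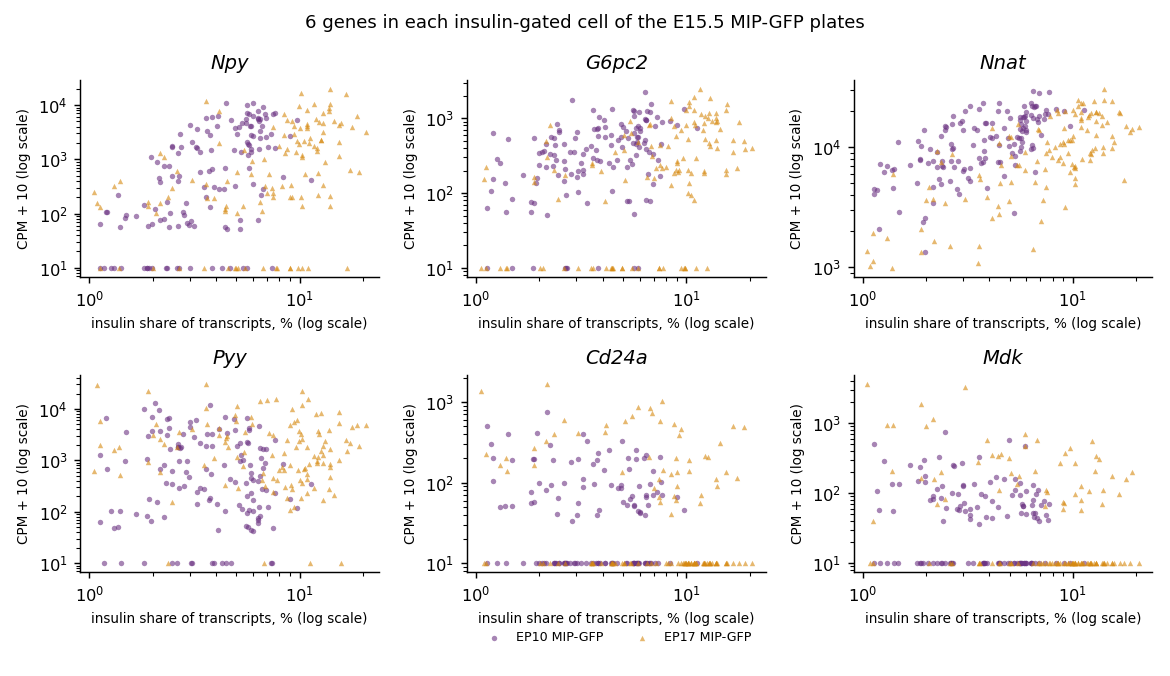
Level of 6 genes (CPM plus 10, log scale) against insulin share (% of transcripts, log scale) in each of the 263 insulin-gated cells of the MIP-GFP plates, with circles for EP10 and triangles for EP17. Points on the bottom line are cells with 0 transcripts of the gene. Npy, G6pc2 and Nnat lie higher at larger insulin shares, while for Cd24a and Mdk many cells lie on the bottom line.

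Folding genes rose with the insulin share. Of 25 unfolded protein response genes, 16 were higher and 1 lower in the high tertile, with a median of 0.77. Hspa5 stood at 4639.6 and 3985 CPM in the high tertiles against 3437 and 2135 CPM in the low tertiles (0.70 ± 0.12, adjusted p = 8.49e-05). Dnajb9 differed by 1.08, Hyou1, another chaperone, by 1.06 and Creld2 by 1.05. Atf3, a stress-response transcription factor that is also an immediate early gene, was the 1 member that was lower (-1.10 ± 0.29), and Xbp1 did not pass (0.38 ± 0.14, adjusted p = 0.138). With DESeq2, 10 of the list were higher and 0 lower. Of 29 ER entry genes, 8 were higher and 0 lower, with Ssr4 at 479.7 and 877 CPM against 250.4 and 433 CPM (1.03 ± 0.13).

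Granule proteins and processing genes had median log2 differences of 0.38 and 0.26. The unfolded protein response list had 0.77 and the ER entry list 0.35. Of 16 granule proteins 5 were higher and 0 lower, among them Scg2 (1.20 ± 0.13) and Ptprn (1.24 ± 0.15), a membrane protein of dense-core granules. Of 9 processing genes, Scg5, the helper of the convertase PC2, and Cpe, the carboxypeptidase, were higher (0.77 ± 0.12 and 0.37 ± 0.11). Pcsk1 did not pass the test, at 492 and 483 CPM in the high tertiles and 433 and 388 CPM in the low tertiles (0.29 ± 0.13). Other called genes outside the lists were Prss53 (2.15 ± 0.17), Bace2, a protease of beta cells (2.07 ± 0.22), and Cntfr, a cytokine receptor (2.24 ± 0.28).

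No endocrine transcription factor of 23 tested was higher in the high tertile, and 5 were lower. Pax4 stood at 6.66 and 2.66 CPM in the high tertiles against 32.3 and 59.99 CPM in the low tertiles (-2.76 ± 0.53, adjusted p = 0.000611), from 7 and 1 transcripts against 32 and 19. Isl1 stood at 516 and 591 CPM against 986 and 923 CPM (-0.74 ± 0.14). Etv1 stood at 5.71 and 13.3 CPM against 23.2 and 47.2 CPM (-1.85 ± 0.52, adjusted p = 0.0274). With DESeq2, 1 factor of the list was lower. Pdx1 (0.13 ± 0.29), Nkx6-1 (0.26 ± 0.15) and Neurod1 (-0.13 ± 0.12) did not pass, with adjusted p-values of 0.902, 0.444 and 0.664.

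Of 19 precursor genes, 5 were lower and 1 higher in the high tertile. Fev stood at 82.3 and 90.7 CPM in the high tertiles against 161 and 301 CPM in the low tertiles (-1.21 ± 0.20, adjusted p = 7.72e-05), with no overlap. Cck, a peptide of precursors, was lower (-1.44 ± 0.29), as were Runx1t1 (-1.29 ± 0.29) and Cdkn1a, a cell cycle inhibitor (-1.43 ± 0.30). Pyy, peptide YY, stood at 824 and 1949.9 CPM against 2066 and 4616 CPM (-1.22 ± 0.13). Mdk, the growth factor midkine, stood at 34.3 and 47.96 CPM against 94.5 and 349 CPM (-2.05 ± 0.30). Among all insulin-gated cells of the EP17 MIP-GFP plate, a single cell held 33.8% of the Cdkn1a transcripts, and a single cell 19.7% of the Mdk transcripts. In EP10 these values were 6.51% and 7.46%. Of 13 alpha-cell genes, 3 were lower, among them Etv1 and Peg10, 0 were higher and 10 did not pass. The 6 alpha markers, Gcg included, did not fall as a sum. They stood at 4940 and 6088 CPM in the high tertiles against 4600 and 6051 CPM in the low tertiles.

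Of 27 imprinted genes, 6 were lower and 3 higher in the high tertile. Several of these rest on single cells. A single low-tertile cell held 87.2% of the H19 transcripts of the EP10 low sum, and single cells held 86.8% and 89.2% of the Mest transcripts of the 2 low sums. The cells rich in acinar or mesenchymal markers named above lie in the low tertiles. Without these 2 cells, 310 genes passed, with 214 higher and 96 lower, and 2 of the imprinted genes were lower. In that setting H19 (-2.15 with all cells) and the acinar gene Ctrb1 (-3.06 with all cells) changed sign, to 0.24 and 1.39, while 15 unfolded protein response genes and 12 maturation genes were higher. Ctrb1 was also at 1.52 with the gate at 2%.

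**Figure D5:**
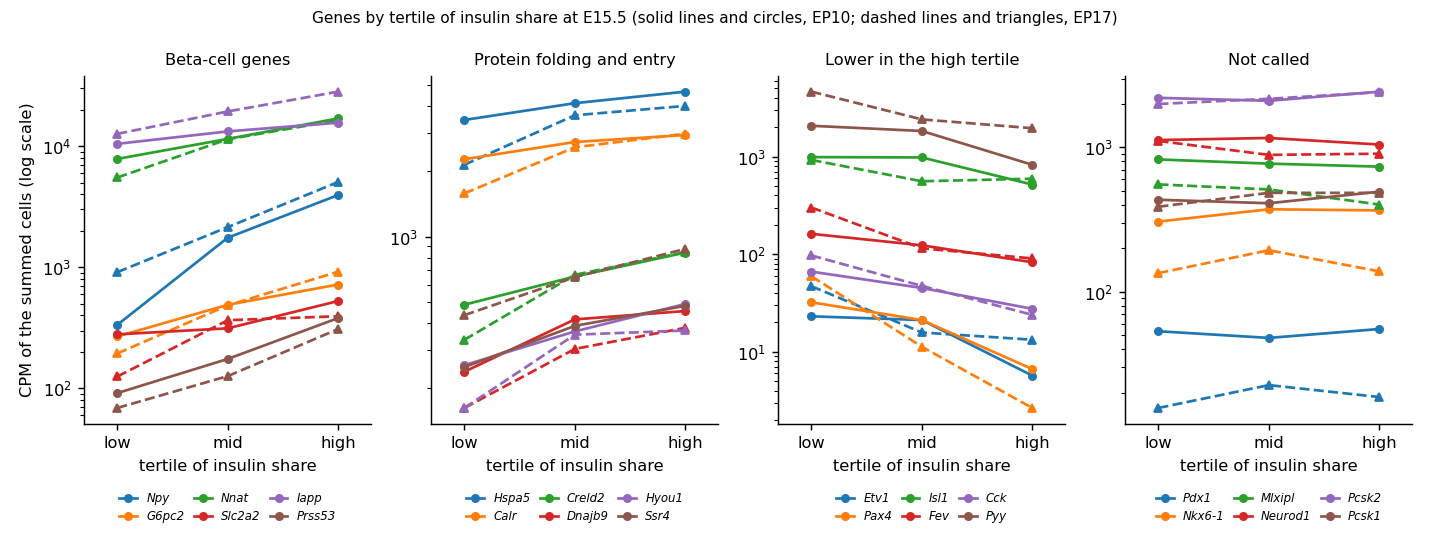
Level of 24 genes (CPM of the summed cells, log scale) in the low, mid and high tertile of insulin share on the EP10 (solid lines, circles) and EP17 (dashed lines, triangles) MIP-GFP plates. Genes of the 2 left panels and of the third panel passed the test between high and low tertiles, and those of the right panel did not. Npy lies at 3939 and 5045 CPM in the high tertiles and at 334 and 910 CPM in the low tertiles.

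The sort was compared by values only, because the EP17 live plate held 5 insulin-gated cells, under the 10 needed for a sum. Npy stood at 2035 and 2754 CPM in the MIP-GFP sums of EP10 and EP17, against 999.7 and 7622 CPM in the live sums. The order of the sorts was opposite in the 2 experiments. The same held for Iapp, at 13121 and 20320 CPM on MIP-GFP plates against 7124 and 29572 CPM on live plates. Hspa5 was at 4072 and 3319.8 CPM on MIP-GFP plates, against 3435 and 2390 CPM on live plates. The acinar gene Ctrb1 was found in 21 of 140 and 6 of 123 gated cells of the MIP-GFP plates, against 13 of 13 and 5 of 5 on the live plates. The part of free acinar RNA in these shares was not tested. Each live value rests on few cells and has no test.

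Insulin-gated cells of E15.5 were last set against those of E13.5 and E14.5 on MIP-GFP plates, with 2 experiments on each side. No gene of 9805 passed at an adjusted p of 0.05 (0.0%) in edgeR, 577 had an unadjusted p under 0.05, and DESeq2 called 14. Some lists leaned to E15.5 with no member called. The log2 difference was above 0 in 79 of 79 ribosomal protein genes (median 0.67) and 19 of 21 immediate early and dissociation genes (1.07). It was above 0 in 67 of 78 nuclear oxidative phosphorylation genes (0.40), beside a median of 0.0075 for all genes. The other lists had medians from -0.11 to 0.25. Iapp stood at 13121 and 20320 CPM in EP10 and EP17, against 9423 and 10280 CPM in EP12 and EP14 (0.90 ± 0.30, adjusted p = 0.734). Nnat stood at 12130 and 11353 CPM against 12156 and 10956 CPM (0.14 ± 0.24), and Npy at 2035 and 2754 CPM against 2010.2 and 2403 CPM (0.25 ± 0.27). None of these genes passed the test. Both Iapp values at E15.5 lay above both earlier ones, which was not compared with the share of all genes that separate in this way. Without EP10, 994 genes passed, and without EP17, EP14 or EP12, 200, 10 and 1 passed, so the count rests on single experiments. Stage and experiment cannot be told apart for the E13.5 and E14.5 plates, which have 1 experiment each.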

How the data were processed

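The deposited table holds non-integer estimated counts of transcripts per gene and well, which the authors made from UMI counts; that they derive from UMIs is read from the values, which end at 1597 transcripts. The aligner BWA, Seurat and the build mm10 are named in the submitters' processing notes, and their versions are not given in the sources used here. Wells carry only the experiment and the sort, so the libraries of a plate were pooled and the experiment is the replicate. No label says that libraries came from separate embryos or litters, so the spread behind the p-values is that of 2 experiments and may be technical. The table of all wells had 1536 columns that matched no label, and with the smaller table there were 2028; none was used. Another 4 libraries, 2 of them from E15.5, carry no experiment number and were not analysed here.

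Kept wells were gated, and counts of each class were summed per experiment, rounded to whole numbers and stripped of the 6 hormone genes (Python 3.11.15, numpy 2.4.6, pandas 2.3.3, scipy 1.17.1). The test was edgeR 4.0.16 in R 4.3.3, with filterByExpr, TMM, quasi-likelihood test, Benjamini-Hochberg adjustment over all genes tested and a threshold of 0.05. All adjusted p-values in the text come from these edgeR fits, and values after ± are SE of log2 differences. DESeq2 1.42.0 was an alternative. CPM is of the summed counts and was not scaled by length, since 3′ ends were counted. No doublet caller was run: leaving out wells above 5 times the plate's median transcripts left the 281 members as they were. No kept well was identical to another.

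EP10 and EP17 served as block. Same-numbered sums deviated together from their class means (r = 0.675 against other wells, 0.631 against glucagon-gated, 0.483 against Fev-gated cells and 0.662 between tertiles, across 4487 to 4824 genes), and each number is an experiment in the labels. In the fit against other wells the live plates shared the estimate of spread, without the EP17 live insulin-gated sum (5 cells).

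Named genes are the gate's markers, the members of the lists, and per comparison up to 15 genes in each direction with the largest log2 difference among those called, in the same direction in each experiment and at 50 CPM or more in the higher class. The members and lists were chosen with earlier results of these data known. Some genes of the lists are not reported here by name. On simulated counts, 2-fold and 4-fold changes were recovered in 51% and 94% of genes against glucagon-gated cells (10170 genes run), in 64% and 97% between tertiles (8355), in 20% and 92% against other wells (11136) and in 41% and 100% between stages (9585). False calls were 7 of 152 against glucagon-gated cells, 10 of 171 between tertiles, 9 of 121 against other wells and 4 of 145 between stages. The simulated sums held no difference between experiments and no spread particular to a gene, and scarce genes were not changed. These rates may therefore not hold for the data or for scarce genes. Promoter sequences are from RefSeq. Alternatives covered scaling, filter, wells, gate, block, depth and left-out experiments.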

Additional observations from a re-analysis of the deposited data

How the results depend on the processing

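Counts of calls depended on the settings more than the directions of named genes. With DESeq2 the calls were 252 against other wells, 766 against glucagon-gated cells, 223 against Fev-gated cells, 67 between tertiles and 14 between stages. Without the experiment as block they were 9, 430, 37 and 0, and the pairing of EP10 with EP17 was thus needed for most calls. With no filter on low counts, 694 genes passed against other wells and 135 between stages. When wells were limited to those of the smaller deposited table, the count against other wells was 408. A gate at 2% gave 89 calls against other wells and 182 between tertiles, and a gate at 0.5% gave 259 against Fev-gated cells and 683 between tertiles. Fits on the MIP-GFP plates only, or on insulin-gated and glucagon-gated sums only, gave 2480 and 2315 calls. The cause of these differences was not tested, beyond the fewer sums or cells in some fits.

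Between stages, leaving out 1 experiment gave between 1 and 994 calls. In the other comparisons leaving out an experiment left no residual degrees of freedom, so those are values with no test, and a fit between sorts was not run. Between tertiles, Ctrb1 turned to 1.52 with the gate at 2% and to 1.39 without the 2 cells rich in acinar or mesenchymal transcripts, where H19 turned to 0.24. Leaving out these cells was chosen after seeing the data. Over 206 pairs of a named gene and a comparison and 2585 alternative values, those 3 values changed the sign of a call, 246 lost the call and 13 gained it. Another 188 values, all from leaving out an experiment, moved by more than 1 SE (121 without EP10 and 67 without EP17) and have no test. Of the lost calls 120 were without the block and 42 with DESeq2. The number of gated cells was 314 with the gate at 0.5%, 247 at 2% and 234 among the wells of the smaller table. Depth limits rare genes: in the EP17 glucagon-gated sum 1 transcript is 5.04 CPM, and in EP17 low-tertile cells Pax4 rests on 19 transcripts.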

Other observations

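Some genes varied widely among the insulin-gated cells of both MIP-GFP plates. The genes below were chosen after their values were seen, as those with the largest variance beyond counting noise in both experiments among 1608 genes compared. The squared coefficient of variation of Gip, which encodes an incretin of gut cells, was 6.96 in EP10 and 19.5 in EP17, against a median of 0.0504 over the genes compared. A single cell held 57.7% of the Gip transcripts of EP17. Peg10, an imprinted gene derived from a retrotransposon, had values of 4.92 and 3.62 and was found in 70.7% and 63.4% of the cells. Next in order came Pyy with 2.25 and 2.22, Cd24a with 1.73 and 2.52, Npy with 1.72 and 2.43 and Mdk with 1.44 and 6.27. Cdkn1a followed with 1.09 and 14.9 and the immediate early gene Nr4a1 with 1.06 and 1.71. Single EP17 cells held 33.8% of the Cdkn1a and 19.7% of the Mdk transcripts of that plate's insulin-gated cells.

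On the EP17 MIP-GFP plate 17 wells held at least 1% insulin but Gcg above the limit of the gate. Their insulin share ran from 1.02% to 6.75% with a median of 1.76%, and their Gcg share from 0.377% to 6.67% with a median of 3.56%. They held a median of 5462 transcripts, against 8590 in the insulin-gated cells of the plate, and 3 of them met the glucagon gate. Between the insulin-gated sums of EP17 and EP10, 130 of 4518 genes at 50 CPM or more were at least 2-fold higher in EP17 and 175 at least 2-fold lower. These last values have no test, since each experiment is a single sum.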
